A study of Mus musculus with 2 samples.

Results

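Classical monocytes of B16F10 melanomas were described here as the cells of CD45-sorted tumour suspensions that met a rule on their own transcripts. A member was a barcode with at least 200 genes and at most 15% mitochondrial UMIs (unique molecular identifiers, each standing for 1 captured RNA molecule) that passed 6 further conditions. Hp, Chil3, Ly6c2, Plac8 and Ifitm6 together had to reach 8 UMIs, and Csf1r, Ccr2 and Fcgr1 together 1 UMI. Hp, Chil3, Plac8 and Ifitm6 had to outnumber the macrophage genes C1qa, C1qb, C1qc, Arg1, Ms4a7 and Mrc1. The dendritic cell genes Cd209a, Flt3, Xcr1, Fscn1 and Siglech could reach at most 1 UMI, and the lymphoid genes Cd3d, Cd3e, Cd79a and Ncr1 and the neutrophil genes Retnlg and Cxcr2 had to be at 0. The rule left 1212 members of 14624 cells that passed the gene and mitochondrial limits, 846 of 5688 in the KO library and 366 of 8936 in the WT library.

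The KO library came from Lyz2-Cre-Kcnj2f/f mice and the WT library from Kcnj2f/f mice, so both carried the floxed Kcnj2 gene and KO alone carried the Cre recombinase. Lyz2-Cre is active in macrophages, monocytes and neutrophils, and not in monocytes alone. B16F10, a mouse melanoma cell line, had been implanted under the skin, and tumours were taken on day 10. Each library pooled the tumours of 3 mice, so there was 1 library per genotype with no replicate, and the question the study set was how the channel Kir2.1, the Kcnj2 protein, affects the tumour microenvironment. Strain background, age and sex of the mice were not stated in the labels. Every difference below is therefore one between 2 libraries. Intervals are 95% counting intervals and cover counting error only, not differences between mice or between library preparations. Those of a gene's summed UMIs treat each UMI as independent, so they also leave out the uneven spread of UMIs over cells.

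Classical monocytes are made in the bone marrow, leave it through the chemokine receptor Ccr2, and circulate with high surface Ly6C. In tumours they are the main precursors of macrophages, and part of them take up antigen presentation and MHC class II as they mature. Monocytes respond strongly to interferons: type I interferon, acting through its receptor, switches on a large set of antiviral genes in them.

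The libraries held 57047535 UMIs in 6356 barcodes for KO and 55219440 UMIs in 9677 barcodes for WT. Cells that passed the limits were deeper in KO, with a median of 8026 UMIs, than in WT, with a median of 4398.5 UMIs. Members had medians of 10018.5 UMIs and 2604 genes in KO and 8567 UMIs and 2336.5 genes in WT, and median mitochondrial shares of 2.30% in KO and 1.96% in WT. The 2 libraries shared 63 barcode sequences, of which 1 was a KO member and 0 were a WT member.

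Kcnj2, the gene targeted in KO (chromosome 11, 111066164 to 111076821, GRCm38), was scarce in members of both libraries. It had 40 UMIs in KO members and 43 UMIs in WT members, which is 4.44 CPM (interval 3.17 to 6.05) in KO and 13.1 CPM (9.49 to 17.7) in WT. CPM here and throughout is a gene's UMIs summed over the cells, divided by all their UMIs and scaled to 1000000. The log2 ratio KO over WT was -1.56 (-2.22 to -0.90). A UMI of the gene was seen in 3.66% of KO members and 7.38% of WT members, against 0.205% of KO T cells and 0.152% of WT T cells. T cells, which should lack myeloid genes, had median depths of 4915 UMIs in KO and 5073.5 UMIs in WT. Which part of the gene was floxed is not given in the labels, and reads from outside a deleted part would still be counted, so the lower level does not measure how many cells had lost it. Comparator macrophages had 12.2 CPM in KO and 17.0 CPM in WT.

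Lyz2, the lysozyme gene that carries the Cre in Lyz2-Cre mice (chromosome 10, 117277331 to 117282321), had the lowest ratio of the genes ranked in members. It reached 3590 CPM in KO members and 11416 CPM in WT members, a log2 ratio of -1.67 (-1.69 to -1.65). No Lyz2 UMI was found in 46.8% of KO members and 7.10% of WT members. With each cell of at least 3000 UMIs thinned to that number, the share of cells with a Lyz2 UMI was 44.9% in KO members and 87.7% in WT members, against 4.65% of KO T cells and 8.99% of WT T cells. The neighbouring paralog Lyz1 (117287797 to 117292868) had 297 CPM in KO members and 14.3 CPM in WT members, a log2 ratio of 4.37 (3.96 to 4.82). Of the WT Lyz1 UMIs, 89.4% came from 5 cells, against 27.5% of the KO Lyz1 UMIs. The 2 genes are closely similar in sequence, so the split of reads between them is uncertain.

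Members took a larger share of the KO library. They were 14.9% of KO cells (13.96 to 15.8) and 4.10% of WT cells (3.69 to 4.53), a log2 ratio of 1.86 (1.69 to 2.03). The rule counts UMIs and KO cells were deeper, so the shares were also taken over the 4628 KO cells and 5636 WT cells with at least 3000 UMIs, which left out 1060 KO cells and 3300 WT cells. Unthinned, members were 18.1% of these cells in KO and 6.33% in WT, a log2 ratio of 1.51 (1.34 to 1.68). With each of these cells thinned to 3000 UMIs before the rule, the shares were 14.3% in KO and 5.07% in WT, a log2 ratio of 1.49 (1.30 to 1.69). T cells numbered 975 in KO and 2636 in WT, so the share of members also moves with the share of lymphocytes. Set against comparator macrophages alone (cells with 8 or more UMIs of the 6 macrophage genes; 281 in KO and 181 in WT), members were 75.1% (72.4 to 77.6) of the 2 sets in KO and 66.9% (62.8 to 70.8) in WT. The log2 ratio of those shares was 0.17 (0.07 to 0.26), an interval that covers counting error only.

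The conditions of the rule did not weigh alike in the 2 libraries. The lymphoid condition left 850 of 1096 cells in KO and 372 of 1701 cells in WT. Ly6c2 and Plac8 were not restricted to monocytes. T cells had 609 CPM of Ly6c2 in KO and 982 CPM in WT, and a Plac8 UMI was found in 52.6% of KO T cells and 69.5% of WT T cells. Hp, which encodes haptoglobin, was seen in 1.13% of KO T cells and 0.835% of WT T cells, against 62.3% of KO members and 58.5% of WT members. Cells just inside the limit of 8 UMIs (sums of 8 to 10; 45 in KO and 31 in WT) had 529 CPM of Plac8 and 91.5 CPM of Ly6c2 in KO, and 541 CPM and 135 CPM in WT. Cells just outside it (sums of 5 to 7; 51 in KO and 44 in WT) had 442 CPM of Plac8 and 124 CPM of Ly6c2 in KO, and 460 CPM and 73.3 CPM in WT. Cells inside had median depths of 9346 UMIs in KO and 9290 UMIs in WT, and cells outside 6711 UMIs in KO and 5510 UMIs in WT. Both genes belong to the sum that placed these cells, so their levels cannot show whether the limit divides different kinds of cell.

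The genes of the rule, given only as a description since they chose the cells, were led by Plac8 (placenta-specific 8), at 2847 CPM in KO members and 2564 CPM in WT members. Ccr2, the receptor for marrow exit, had 897 CPM in KO and 750 CPM in WT. Ly6c2 itself had 755 CPM in KO and 412 CPM in WT, the widest gap among the 5 monocyte genes. Hp had 442 CPM in KO and 373 CPM in WT, and Ifitm6 558 CPM in KO and 400 CPM in WT. Chil3, a chitinase-like secreted protein, was the one lower in KO, at 448 CPM against 532 CPM in WT. Plac8 supplied most of the qualifying UMIs, with a median share of 59.2% per KO member and 64.4% per WT member.

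Other monocyte genes outside the rule were well expressed in both libraries. Thbs1 (thrombospondin) had 2419 CPM in KO members and 1957 CPM in WT members, Ms4a4c 708 CPM in KO and 529 CPM in WT, and the proteoglycan gene Vcan 503 CPM in KO and 358 CPM in WT. F13a1, a coagulation factor subunit typical of monocytes, had 403 CPM in KO and 352 CPM in WT. Summed, the 14 classical markers outside the rule had 17308 CPM in KO members and 24610 CPM in WT members. Macrophages had 16007 CPM of them in KO and 20850 CPM in WT, so the list as a whole set members little apart from macrophages. Of the non-classical monocyte markers, Treml4 was low, with 15.7 CPM in KO and 21.6 CPM in WT, as was Ace, with 21.1 CPM in KO and 19.2 CPM in WT. The whole non-classical list of 14 genes was not low. It summed to 1369 CPM in KO members and 1287 CPM in WT members, against 1224 CPM in KO macrophages and 934 CPM in WT macrophages. The complement gene C1qb, allowed by the rule only below the monocyte sum, reached 64.7 CPM in KO and 83.8 CPM in WT.

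Comparing the members with other cells of the same library showed what set them apart in both libraries at once. Against macrophages, the genes furthest up in members included Il1r2, the interleukin-1 decoy receptor, with log2 ratios of 2.17 in KO and 2.08 in WT. The members with much Ly6c2 and Hp, described below as the high set, had 46.8 CPM of Il1r2 in KO and 34.9 CPM in WT, against 42.0 CPM in KO macrophages and 40.8 CPM in WT macrophages, so this difference lay in the other members. Gbp2, an interferon-induced guanylate-binding protein, followed with 2.02 in KO and 2.09 in WT. Samhd1 had 1.40 in KO and 1.46 in WT, and the integrin Itga4 1.22 in KO and 1.48 in WT. Furthest down was the chemokine Ccl8, which had 1.11 CPM in KO members and 0.91 CPM in WT members, against 367 CPM in KO macrophages and 394 CPM in WT macrophages. The platelet-factor chemokine Pf4 had log2 ratios of -4.59 in KO and -5.96 in WT, and Cxcl1 -2.13 in KO and -2.31 in WT.

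Type 2 dendritic cells had 2 or more Cd209a and Flt3 UMIs and numbered 245 in KO and 107 in WT. They also had under 8 UMIs of the rule's monocyte genes and under 8 of its macrophage genes. Xcr1, Fscn1, Siglech and the rule's lymphoid genes were at 0 in them. Members could hold at most 1 UMI of the dendritic cell genes, so gaps in monocyte, macrophage and dendritic cell genes are partly set by the choice. Against these dendritic cells, members were higher in Msr1, a macrophage scavenger receptor. It had 245 CPM in KO members and 197 CPM in WT members, and 1.61 CPM in KO and 0.94 CPM in WT dendritic cells. Thbs1, F13a1 and Vcan were also among the 10 furthest up. Among the 10 furthest down were Tbc1d4, a regulator of glucose transporter traffic, with log2 ratios of -3.39 in KO and -3.47 in WT, the lectin Mgl2 with -3.46 in KO and -3.38 in WT, the chemokine Ccl22 with -3.04 in KO and -3.55 in WT, and the lectin Clec10a with -2.86 in KO and -3.09 in WT. Against neutrophils, which were only 11 cells in KO and 43 in WT, members were higher in MHC class II genes and lower in G0s2, Mmp9 and Asprv1. Mmp9 was at 0 in the members of both libraries, against 454 CPM in KO neutrophils and 416 CPM in WT neutrophils, and with the members set to a floor of 3 UMIs per library the log2 ratios were -10.41 in KO and -8.83 in WT, upper bounds of the true ones. All these are differences between cells chosen on their transcripts, so no test was applied.

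**Figure D1:**
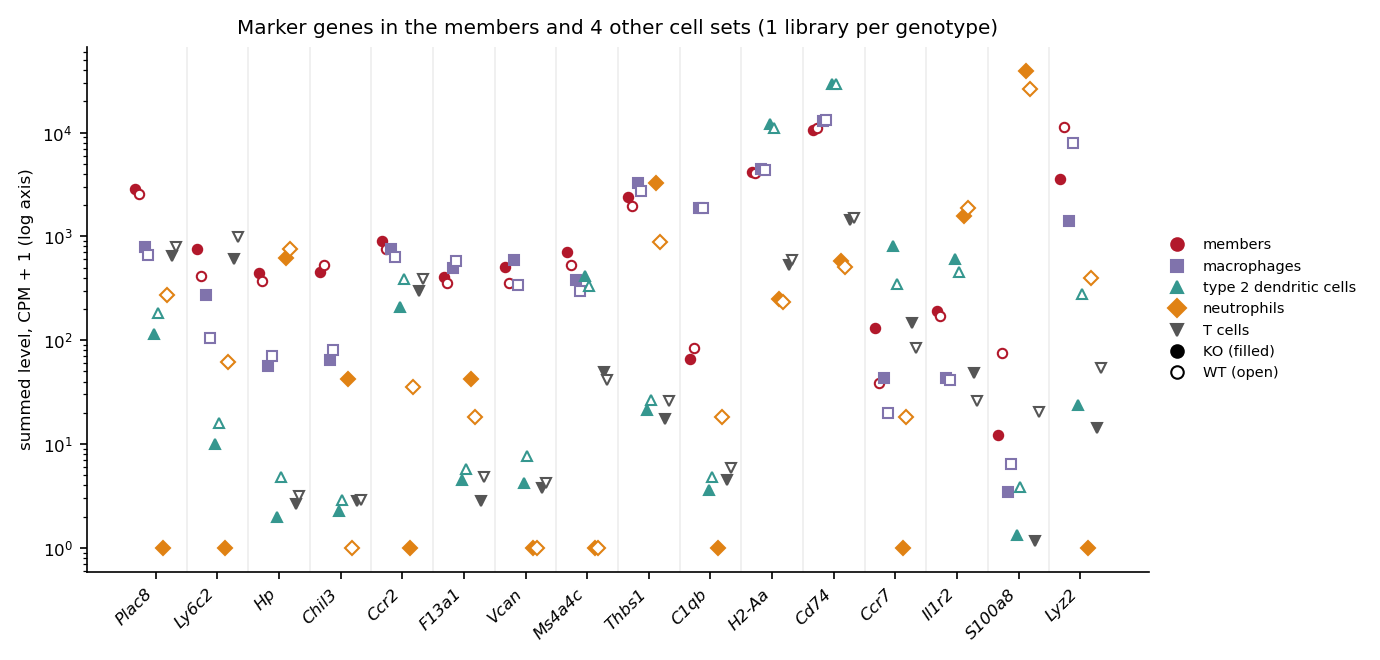
Summed level of 16 genes, in CPM plus 1 on a log axis, in members, comparator macrophages, type 2 dendritic cells, neutrophils and T cells of the KO library (filled) and the WT library (open). Hp and Chil3 helped choose the members and were limited in the dendritic cells, so their gap between these sets was set by the choice. They are also far higher in members than in T cells. Ly6c2 and Plac8 are also present in T cells, and Lyz2 is lower in KO than in WT in members, macrophages and T cells.

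The members were not uniform, and part of them went against the label. No Ly6c2 UMI was found in 23.4% of KO members and 37.7% of WT members, neither Ly6c2 nor Hp in 15.8% of KO members and 22.7% of WT members, and 4.02% of KO members and 8.20% of WT members met the monocyte sum with Plac8 alone. A limit of 5 Ly6c2 and Hp UMIs per 10000, set after the levels had been seen, divided them into a high set of 506 cells in KO (59.8% of members) and 182 cells in WT (49.7%), and a low set of 340 cells in KO and 184 cells in WT. The limit is a cut through a range: 62 KO members and 40 WT members lay between 4 and 6 UMIs per 10000.

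The 2 sets differed in antigen presentation genes. The 10 measured MHC class II genes summed to 36905 CPM in low KO members and 33733 CPM in low WT members, against 10192 CPM in high KO members and 9788 CPM in high WT members. With each member of at least 3000 UMIs thinned to that number, the list had a median of 93 UMIs per low member in KO and 84 in WT, and of 4 UMIs per high member in KO and 4.5 in WT. Across cells the MHC class II sum and the Ly6c2 and Hp sum ran opposite, with Spearman's rho of -0.55 over 836 KO members and -0.54 over 357 WT members. Ly6c2 and Hp helped choose the members, and a member with neither qualified through Plac8, Ifitm6 or Chil3. The rho values therefore describe only cells chosen in this way. The low set also held most of the Ifitm1, an interferon-induced transmembrane protein, with 2383 CPM in KO and 2670 CPM in WT, against 306 CPM in high KO members and 252 CPM in high WT members. Il1r2 was likewise higher in low members, with 357 CPM in KO and 278 CPM in WT, against 46.8 CPM in KO and 34.9 CPM in WT in the high set.

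Low members thus carried MHC class II and little Ly6c2 or Hp, and are called here by those levels, since the rule does not name them as another cell type. Type 2 dendritic cell markers summed to 808 CPM in low KO members and 735 CPM in low WT members, against 361 CPM in KO and 310 CPM in WT in the high set. Macrophages had 588 CPM of them in KO and 580 CPM in WT, and type 2 dendritic cells 1978 CPM in KO and 1956 CPM in WT. The MHC class II sum of low members likewise lay between these cell sets. It was 26407 CPM in KO and 26370 CPM in WT macrophages, and 64953 CPM in KO and 63159 CPM in WT type 2 dendritic cells. Among these cells, chosen in part on Ly6c2 and Hp, Lyz2 followed the levels of both genes. Its Spearman's rho to their sum was 0.38 in KO and 0.64 in WT. Lyz2 had 769 CPM in low KO members and 6221 CPM in low WT members, and 6002 CPM in high KO members and 18107 CPM in high WT members. The Lyz2 log2 ratio KO over WT was -3.02 in the low set and -1.59 in the high set. The difference between the sets was not tested.

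Within the members, 9000 genes had at least 50 UMIs over both libraries. Of these 792 were at least 1.5-fold higher in KO, which is 8.8%, and 300 at least 1.5-fold lower, which is 3.33%. The median log2 ratio over all 9000 genes was 0.05. After scaling by the median ratio instead of the total, 651 genes were higher and 391 lower, so the share of higher genes among those past 1.5-fold was 62.5%, against 72.5% with the total. These percentages are the background against which the gene lists below are read, and 1.5-fold is a limit of size, not a test.

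**Figure D2:**
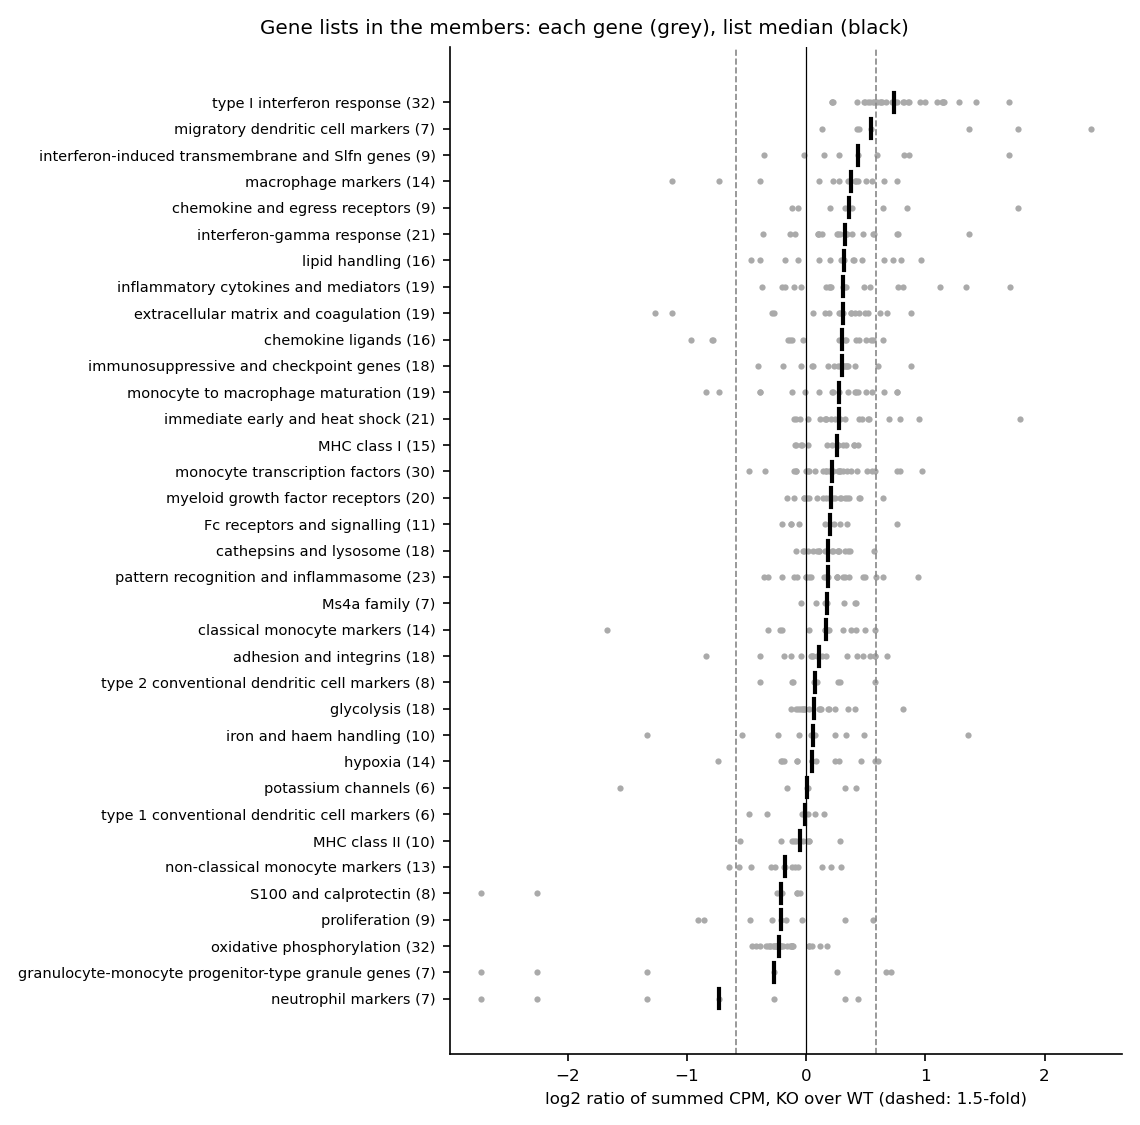
Log2 ratio KO over WT of each measured gene of the lists with 5 or more measured genes (grey points, number of genes in brackets) and the list median (black bar), with genes of the rule left out and dashed lines at 1.5-fold. The type I interferon list has the highest median, 0.73, and the neutrophil marker list the lowest, -0.73.

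Type I interferon response genes were higher together in KO members. Of 32 measured genes, 22 were at least 1.5-fold higher and 0 lower, the median log2 ratio was 0.73, and all 32 ratios were above 0. Summed, the list had 4681 CPM in KO members and 2891 CPM in WT members. The list's median lay between 0.53 and 1.16 under the 18 other settings tried. The list was chosen with earlier results of these data known, so its direction is not independent evidence.

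The antiviral enzymes and their regulators were among the higher genes. Slfn4, a Schlafen family gene of myeloid cells, had the highest ratio, with 64.4 CPM in KO members and 19.8 CPM in WT members, a log2 ratio of 1.70 (1.33 to 2.10). Oasl1, an oligoadenylate synthetase-like protein, had 144 CPM in KO and 53.7 CPM in WT, a log2 ratio of 1.43 (1.20 to 1.66). Rsad2, which encodes the antiviral enzyme viperin, had 466 CPM in KO and 210 CPM in WT, a log2 ratio of 1.15 (1.03 to 1.27). Irf7, the transcription factor that amplifies interferon production, had 243 CPM in KO and 110 CPM in WT, a log2 ratio of 1.15 (0.98 to 1.31). The cytosolic RNA sensor Ifih1 had 171 CPM in KO and 79.9 CPM in WT, and the negative regulator Usp18 46.1 CPM in KO and 23.8 CPM in WT. Ifi213 and Ifit3b, from the Ifi200 and Ifit families, had ratios of 1.15 and 1.28, the second from only 127 UMIs in KO and 19 UMIs in WT. The least different were Zbp1, a nucleic acid sensor, at 0.21, and the ubiquitin-like modifier Isg15 at 0.22. Ifi206, a relative of Ifi213 outside the list, had 73.0 CPM in KO and 28.7 CPM in WT.

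More cells showed these transcripts in KO. A UMI of Rsad2 was found in 35.8% of KO members and 15.8% of WT members, against 7.38% of KO T cells and 3.53% of WT T cells. Oasl1 was found in 38.1% of KO members and 18.0% of WT members, against 3.28% of KO T cells and 2.16% of WT T cells, and at 3000 UMIs per cell in 20.6% of KO members and 9.24% of WT members. Irf7 was found in 64.0% of KO members and 39.1% of WT members, but also in 25.4% of KO T cells and 20.9% of WT T cells. Rsad2 was unevenly spread, with 23.6% of its KO UMIs and 46.4% of its WT UMIs in 5 cells each.

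Counted per cell, the summed list showed the same direction. At 3000 UMIs per cell its sum had a median of 9 UMIs (quartiles 5 and 16) over 836 KO members and 5 UMIs (quartiles 2 and 10) over 357 WT members. Cells with 20 or more UMIs of the list were 18.8% of KO members (16.2 to 21.6) and 10.4% of WT members (7.40 to 14.0). A sum of 0 was found in 18 KO members (2.15%) and 25 WT members. The 10% of cells with the highest sums held 39.0% of the list's UMIs in KO and 47.2% in WT, and the highest cell had 172 UMIs in KO and 151 UMIs in WT. Across cells the list was nearly unrelated to Ly6c2 and Hp, with Spearman's rho of 0.09 in KO and 0.17 in WT, and to MHC class II, with -0.01 in KO and 0.04 in WT, while it went with the interferon-gamma list at 0.46 in KO and 0.56 in WT. These correlations are across cells of 1 library that share its depth and free RNA and were chosen in part on Ly6c2 and Hp.

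**Figure D3:**
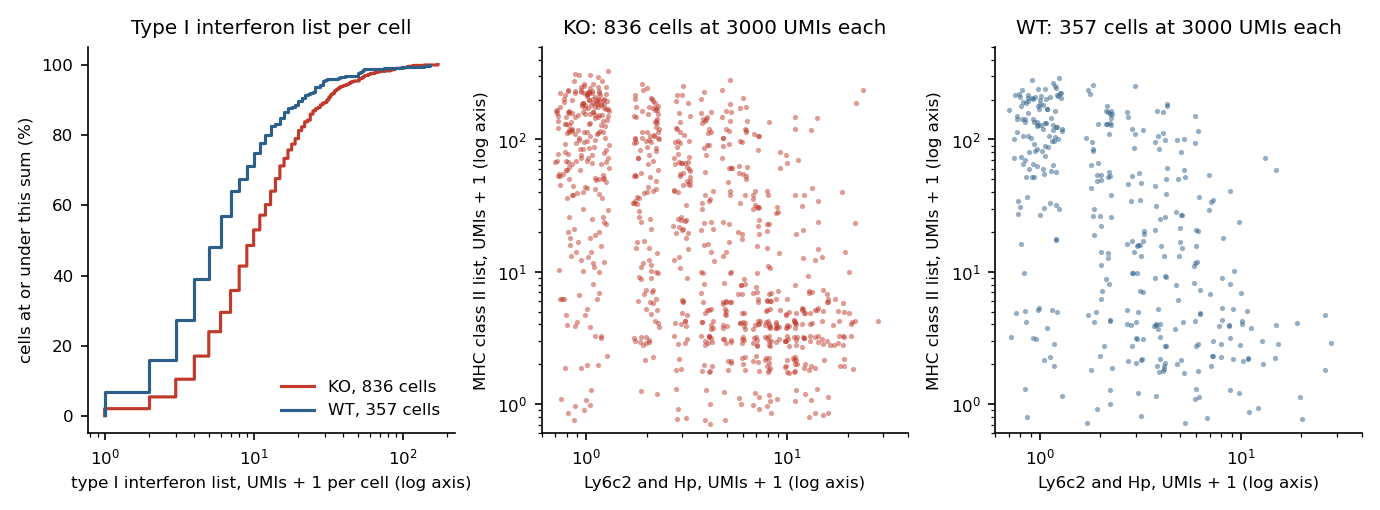
Members thinned to 3000 UMIs each: left, cumulative percentage of cells against the summed type I interferon list (UMIs plus 1, log axis) for KO and WT; middle and right, MHC class II sum against the Ly6c2 and Hp sum (UMIs plus 1, log axes, points jittered) for KO and WT. The KO curve lies to the right of the WT curve over most of its range, with medians of 9 UMIs in KO and 5 UMIs in WT, and both libraries hold cells with MHC class II and little Ly6c2 or Hp.

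The interferon difference was present in both sets of members. In the high set, 23 of 32 genes were at least 1.5-fold higher in KO and 0 lower, beside 9.58% higher and 3.73% lower of the 7382 genes measured there, and the list median was 0.87. In the low set 14 of 32 were higher and 0 lower, beside 10.3% and 4.23% of 7336 genes, with a median of 0.53. In comparator macrophages 22 of 29 measured genes were higher and 0 lower, beside 9.16% and 4.82% of 6592 genes, with a median of 0.87. The medians were 0.23 in type 2 dendritic cells and 0.13 in T cells. Rsad2 had 463 CPM in KO macrophages and 85.6 CPM in WT macrophages, a log2 ratio of 2.43. The differences between cell types were not tested.

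**Figure D4:**
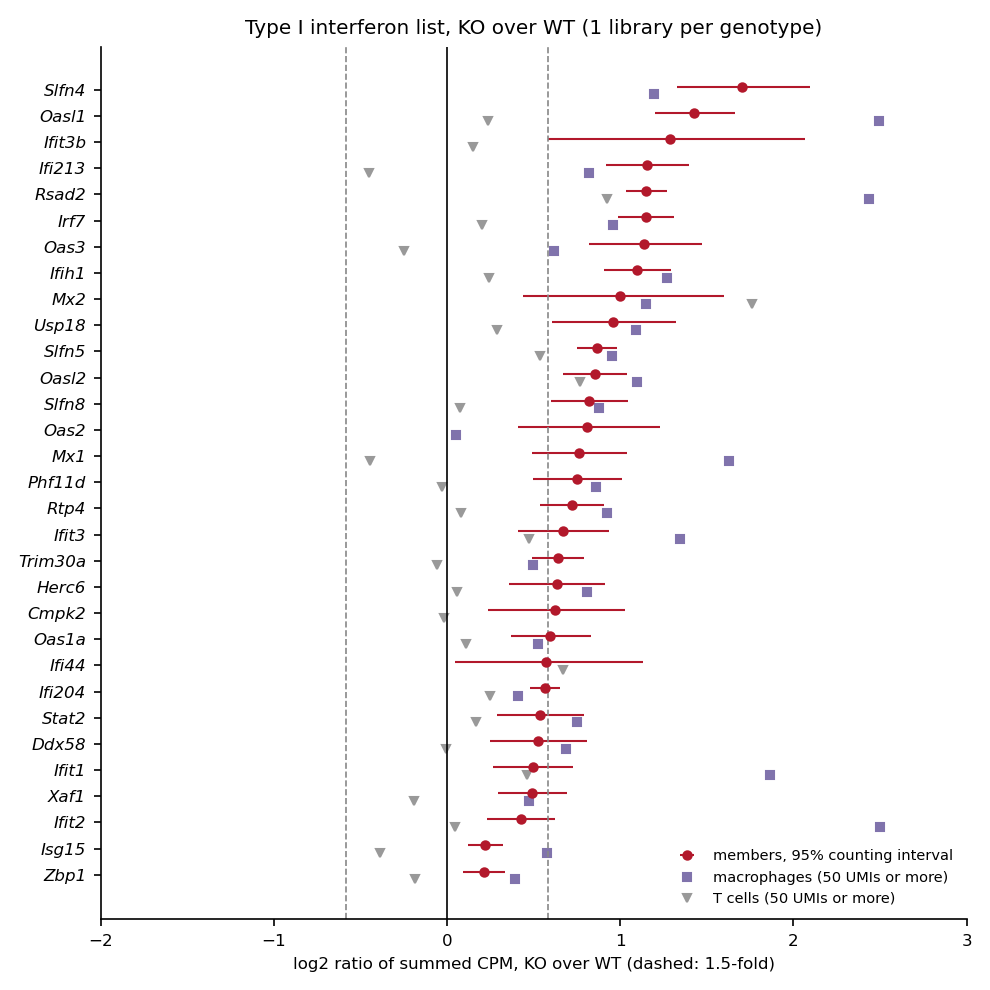
Log2 ratio KO over WT of 31 of the 32 genes of the type I interferon list in members (red, with 95% counting interval), comparator macrophages (purple squares) and T cells (grey triangles), dashed lines at 1.5-fold. The member ratios drawn are all above 0, from 0.21 for Zbp1 to 1.70 for Slfn4, and T cell ratios lie on both sides of 0.

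The bases in front of these genes are shown to place the shared response beside its known control element. Interferon-stimulated response elements contain paired GAAA cores, searched here as GAAANNGAAA on both strands in the 250 bases before each RefSeq start (GRCm38.p6). The motif was found in 2.98% of all 32851 windows in the table and in at least 1 window of 3.46% of the 27025 genes there, and in 12 of the 24 list genes that had a window. It was found in 9 of 17 genes at least 1.5-fold higher in KO, and in 3 of 7 that were not. Rsad2 (chr12:26456453-26456702, minus strand) held it once, with its first base 120 bases before the start, Ifit3b (chr19:34607707-34607956, plus strand) at 188 and 154 bases, and Ifi213 (chr1:173599273-173599522, minus strand) at 73 bases. Oasl1 (chr5:114922990-114923239, plus strand), among the most different genes, held no exact match. Neither did Slfn4, which had the highest ratio of the list, nor Irf7 and Ifih1. The sequences run 5′ to 3′ towards the gene, and capitals mark the motif or its reverse complement. A match is a description of these letters only and not evidence of binding.
Rsad2: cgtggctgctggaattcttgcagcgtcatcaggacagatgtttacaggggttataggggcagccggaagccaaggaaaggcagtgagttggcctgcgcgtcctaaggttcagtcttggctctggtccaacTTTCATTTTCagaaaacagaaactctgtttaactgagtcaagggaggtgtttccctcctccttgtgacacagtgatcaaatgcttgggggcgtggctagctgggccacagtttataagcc
Ifit3b: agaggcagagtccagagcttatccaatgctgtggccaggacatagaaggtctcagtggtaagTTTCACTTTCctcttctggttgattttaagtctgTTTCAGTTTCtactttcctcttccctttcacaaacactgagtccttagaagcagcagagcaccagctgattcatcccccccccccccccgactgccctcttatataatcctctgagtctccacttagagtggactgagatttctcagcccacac
Ifi213: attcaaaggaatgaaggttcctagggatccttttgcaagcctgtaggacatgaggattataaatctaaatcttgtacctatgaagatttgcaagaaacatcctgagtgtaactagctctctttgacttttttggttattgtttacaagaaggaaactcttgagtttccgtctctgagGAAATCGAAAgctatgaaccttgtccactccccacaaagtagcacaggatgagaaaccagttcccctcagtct
Oasl1: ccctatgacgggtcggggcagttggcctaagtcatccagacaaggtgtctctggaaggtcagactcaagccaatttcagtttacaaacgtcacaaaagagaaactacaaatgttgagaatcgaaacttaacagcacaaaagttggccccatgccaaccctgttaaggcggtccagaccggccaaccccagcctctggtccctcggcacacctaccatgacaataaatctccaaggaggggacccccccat

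Interferon-gamma response genes differed less. Of 21 measured, 3 were at least 1.5-fold higher in KO and 0 lower, with a median of 0.32. Cxcl9, the T cell attracting chemokine mostly driven by interferon-gamma, had 620 CPM in KO members and 494 CPM in WT members, and Cxcl10, which responds to both kinds of interferon, 1157 CPM in KO and 784 CPM in WT. The receptor genes Ifnar1, with 104 CPM in KO and 105 CPM in WT, and Ifngr1, with 290 CPM in KO and 294 CPM in WT, were at nearly equal levels. The gene of interferon-beta, Ifnb1, had 56.9 CPM in KO members and 32.3 CPM in WT members, a log2 ratio of 0.82 (0.51 to 1.13). It was concentrated, with 41.8% of KO UMIs and 69.8% of WT UMIs in 5 cells each, and in the high set its level was 29.1 CPM in KO and 33.5 CPM in WT.

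MHC class II genes did not differ by 1.5-fold in any of 10 measured genes, with a median of -0.05. H2-Aa, a class II chain, had 4133 CPM in KO members and 4077 CPM in WT members, and the invariant chain gene Cd74 10522 CPM in KO and 11131 CPM in WT. The peptide-loading gene H2-DMb1 was the most different, with 427 CPM in KO and 628 CPM in WT, a log2 ratio of -0.55. None of 15 MHC class I genes passed 1.5-fold either, with a median of 0.26.

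Beyond the interferon genes, the 12 highest ratios among genes with a mean of at least 50 CPM held growth factor and immediate early genes. Egr1, an immediate early transcription factor, had 959 CPM in KO members and 276 CPM in WT members, a log2 ratio of 1.80 (1.70 to 1.90). At 3000 UMIs per cell it was found in 56.2% of KO members and 32.8% of WT members, against 25.4% of KO T cells and 16.0% of WT T cells. Errfi1, a feedback inhibitor of the epidermal growth factor receptor, had 85.8 CPM in KO and 27.7 CPM in WT. Trf, which encodes transferrin, had 153 CPM in KO and 59.7 CPM in WT, and the choline kinase Chka 99.6 CPM in KO and 46.3 CPM in WT. These 4 genes were higher in KO in both sets of members, and Egr1 was also higher in macrophages, with 1695 CPM in KO macrophages and 465 CPM in WT macrophages.

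The UMIs of Ccr7 and Areg were concentrated in few cells, and most of these UMIs were in the low set. Ccr7, the receptor that guides dendritic cells to lymph nodes, had 130 CPM in KO members and 38.1 CPM in WT members, with 40.8% of its KO UMIs and 83.2% of its WT UMIs in 5 cells each. In the low set Ccr7 had 269 CPM in KO and 63.3 CPM in WT, and in the high set 11.95 CPM in KO and 5.58 CPM in WT. Il4i1 and Ccl22, which like Ccr7 mark migratory dendritic cells, had log2 ratios of 2.39 and 1.37. Of 7 measured genes in the migratory dendritic cell list 3 were higher in KO and 0 lower, with a median of 0.54. In the low set 5 of 6 were higher and 0 lower, with a median of 1.67. In the high set 1 of 3 was higher and 1 lower, with a median of 0.21. The list's defining gene Fscn1 was limited by the rule. The part of such cells in these results was not tested beyond leaving out members with a Ccr7 UMI. That left 744 of 846 KO members and 345 of 366 WT members. The list median was then 0.07, with Ccl22 at -0.08 and Il4i1 at 0.97. Areg, the growth factor amphiregulin, had 150 CPM in KO members and 50.3 CPM in WT members, with 40.4% of its KO UMIs and 72.1% of its WT UMIs in 5 cells each, and a log2 ratio of 2.09 in the low set and 0.15 in the high set. Without the 5 members with the most UMIs of the gene in each library, the log2 ratios were 3.59 for Ccr7 and 2.67 for Areg. These 5 cells are a larger part of the WT members and held more of their UMIs, so this setting raises the ratios by itself. Over all genes its median log2 ratio was 0.20, against 0.05 in the main setting.

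Of the immediate early and heat shock list, 4 of 21 measured genes were at least 1.5-fold higher in KO and 0 lower, with a median of 0.27. They were Egr1, Egr2 (111 CPM in KO and 57.6 CPM in WT), Klf6 (1091 CPM in KO and 632 CPM in WT) and the phosphatase gene Dusp1 (2207 CPM in KO and 1365 CPM in WT). Such genes also respond to tissue dissociation. Dissociation time was not given in the labels, and its part in these values was not tested.

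The 12 lowest ratios held, beside Lyz2, the genes of 4 secreted proteins. Spp1, the matrix protein osteopontin, had 292 CPM in KO members and 638 CPM in WT members, a log2 ratio of -1.13 (-1.21 to -1.04). The neutrophil-attracting chemokine Cxcl3 had 139 CPM in KO and 271 CPM in WT, and the monocyte-attracting chemokines Ccl7 and Ccl12 had 304 CPM and 63.2 CPM in KO, and 523 CPM and 109 CPM in WT. All 4 were held by few cells: 5 cells carried 37.0% of Spp1 UMIs in KO and 52.6% in WT, and 43.1% of Ccl12 UMIs in KO and 69.8% in WT. Macrophages had more of all 4, for instance 870 CPM of Spp1 in KO macrophages and 1686 CPM in WT macrophages. After thinning before the rule, Spp1 was at -0.19, Cxcl3 at -0.17, Ccl7 at -0.43 and Ccl12 at 0.15, none of them past 1.5-fold, and the cause was not tested.

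The other low ratios were spread over more cells, with at most 19.8% of a gene's UMIs in 5 cells. Hist1h1e and Hist1h1c, linker histone genes, had log2 ratios of -0.96 and -0.77. The endoplasmic reticulum genes Sdf2l1 and Ostc, the last an oligosaccharyltransferase subunit, had 57.8 CPM and 103 CPM in KO members, and 115 CPM and 166 CPM in WT members. The tetraspanin Cd9 had 97.4 CPM in KO and 174 CPM in WT, Ckb, a creatine kinase, 93.6 CPM in KO and 160 CPM in WT, and the prolyl isomerase Fkbp3 44.2 CPM in KO and 72.2 CPM in WT. These 7 genes had ratios below 0 in both sets of members. After thinning before the rule, Hist1h1e, Hist1h1c, Sdf2l1 and Cd9 were still at least 1.5-fold lower, while Ckb was at -0.43, Ostc at -0.37 and Fkbp3 at -0.54.

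**Figure D5:**
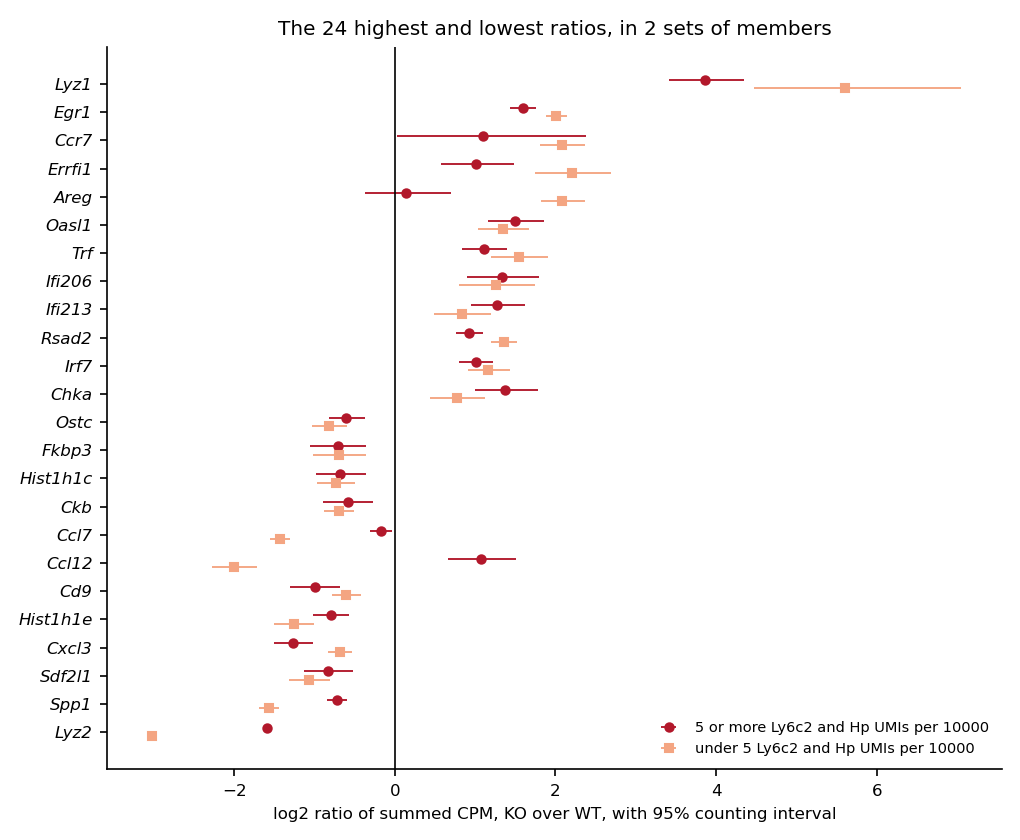
Log2 ratio KO over WT, with 95% counting intervals, of the 12 highest and 12 lowest genes in members with 5 or more Ly6c2 and Hp UMIs per 10000 (circles) and under 5 (squares). Of the 24 genes only Ccl12 lies on opposite sides of 0 in the 2 sets, and Areg and Ccl7 are near 0 in the high set.

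Among chemokine ligands, 1 of 16 measured genes was at least 1.5-fold higher in KO members and 3 lower, with a median of 0.30. Ccl2, the ligand of Ccr2, had 1780 CPM in KO and 1933 CPM in WT, a log2 ratio of -0.12. Chemokine and egress receptors had 3 of 9 higher and 0 lower: Ccr7, the complement receptor C3ar1 (106 CPM in KO and 59.1 CPM in WT) and the formyl peptide receptor Fpr2 (180 UMIs in KO and 42 UMIs in WT). The log2 ratio of C3ar1 was 0.85 (0.62 to 1.08).

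Inflammatory cytokines and mediators had 5 of 19 measured genes higher and 0 lower, with a median of 0.31. In the high set 4 of 17 were higher and 1 lower, with a median of 0.02. In the low set 6 of 17 were higher and 0 lower, with a median of 0.49. The abundant interleukin-1 beta gene Il1b had 7952 CPM in KO members and 8544 CPM in WT members, while its antagonist Il1rn had 824 CPM in KO and 483 CPM in WT, a log2 ratio of 0.77 (0.69 to 0.85). Il1rn was also higher in KO macrophages, at 1306 CPM against 678 CPM in WT macrophages. Il6 had 32.4 CPM in KO members and 12.8 CPM in WT members, Il15, a growth factor for lymphocytes, 27.2 CPM in KO and 12.5 CPM in WT, and the Il23a subunit gene a log2 ratio of 1.71, from 99 UMIs in KO and 11 UMIs in WT. Tnf had 886 CPM in KO and 634 CPM in WT, a ratio of 0.48. Of 23 pattern recognition and inflammasome genes 2 were higher and 0 lower, Tlr6 and the inflammasome sensor Nlrp3, which had 335 CPM in KO and 215 CPM in WT. The log2 ratio of Nlrp3 was 0.15 in the high set and 1.09 in the low set.

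Of 16 measured genes in the lipid handling list, 4 were at least 1.5-fold higher in KO members and 0 lower, with a median of 0.32. The 4 were the sterol-sensing receptor Nr1h3 (8.33 CPM in KO and 4.27 CPM in WT) and 3 of its known targets, Abca1 (34.4 CPM in KO and 20.7 CPM in WT), Abcg1 (35.0 CPM in KO and 20.1 CPM in WT) and Apoe (1333 CPM in KO and 850 CPM in WT). Apoe had a log2 ratio of 0.65 (0.59 to 0.71), and 0.53 in the high set and 0.66 in the low set. It was at 0.47 after thinning before the rule, and Abcg1 was at 0.36 in the high set, both under 1.5-fold. In the high set 3 of 15 list genes were higher and 2 lower, and in the low set 3 of 16 were higher and 0 lower. Of 30 monocyte transcription factor genes 3 were higher and 0 lower. They were Cebpa, a factor of myeloid progenitors (25.8 CPM in KO and 13.1 CPM in WT), Klf6, and the macrophage factor Maf (204 CPM in KO and 120 CPM in WT). Irf8 was nearly equal, with KO at 224 CPM and WT at 221 CPM.

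Macrophage maturation genes moved both ways, with 3 of 19 measured higher (Maf, Apoe and the Fc receptor gene Fcgr4) and 2 lower (Cd9 and Cd81), and a median of 0.28. Extracellular matrix and coagulation genes had 3 of 19 higher (F7, Mmp14 and Mmp19) and 2 lower (Spp1 and Serpinb2). Serpinb2 was carried by 5 cells for 94.3% of its WT UMIs, so its ratio of -1.26 is a value of few cells. Adhesion genes had 1 of 18 higher, the collagen-binding integrin Itga1, and 1 lower, Cd9. Immunosuppressive and checkpoint genes had 2 of 18 higher, Lgals9 (129 CPM in KO and 70.1 CPM in WT) and the angiogenic factor Vegfa (208 CPM in KO and 137 CPM in WT), and 0 lower. The checkpoint ligand Cd274 had 217 CPM in KO and 171 CPM in WT, and Nos2 10.0 CPM in KO and 7.93 CPM in WT.

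Metabolic genes were close in the 2 libraries. None of 32 oxidative phosphorylation genes passed 1.5-fold, with a median of -0.23, and its sign was the same under all 18 other settings. Of 18 glycolysis genes only Hk1, a hexokinase, was higher (41.2 CPM in KO and 23.5 CPM in WT), and of 14 hypoxia genes Vegfa was higher and Ankrd37 lower. None of 18 cathepsin and lysosome genes passed 1.5-fold, with a median of 0.19. The iron list had 1 gene higher, Trf, and 1 lower, Lcn2, of 10 measured. Of 6 measured potassium channel genes Kcnj2 alone passed 1.5-fold. Proliferation genes had 0 of 9 higher and 2 lower.

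Lists for further monocyte traits also held few genes past 1.5-fold. Classical markers had 0 of 14 higher and 1 lower, Lyz2, and non-classical markers 0 of 13 higher and 1 lower, Pglyrp1. Fc receptors had 1 of 11 higher, Fcgr4 (138 CPM in KO and 81.1 CPM in WT), growth factor receptors 1 of 20, the interleukin-3 receptor gene Il3ra, and the Ly6 family 1 of 3, Ly6i (75.1 CPM in KO and 42.1 CPM in WT). In these 3 lists 0 genes were lower. None of 7 Ms4a genes passed the limit. The transmembrane and Schlafen list, which shares genes with the interferon list, had 4 of 9 higher and 0 lower, while its most abundant gene Ifitm3 had 5233 CPM in KO and 4728 CPM in WT.

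Transcripts of other cell types were also looked for, since sorted suspensions carry doublets and free RNA. T cell markers other than those of the rule summed to 15.6 CPM in KO members and 53.0 CPM in WT members, with 0 of 2 measured genes higher and 2 lower, and B cell markers to 87.4 CPM in KO and 137 CPM in WT, with 0 of 3 higher and 2 lower. Neutrophil markers had 0 of 7 measured higher and 4 lower. S100a8, a calprotectin subunit of neutrophils, had 11.1 CPM in KO members and 73.8 CPM in WT members, with 78.0% of its KO UMIs and 67.4% of its WT UMIs in 5 cells each, and it was found in 1 of 975 KO T cells and 58 of 2636 WT T cells. The granule list had 2 of 7 higher, Cd177 and Prtn3, and 3 lower, S100a8, S100a9 and Lcn2, and the S100 list 0 of 8 higher and 2 lower. Macrophage markers had 2 of 14 higher and 2 lower, and melanoma markers 1 of 4 higher (Dct) and 0 lower. Markers of type 1, type 2 and plasmacytoid dendritic cells had 0 higher and 0 lower of 6, 8 and 3 measured, NK cell markers 0 of 1, and no erythroid or platelet marker reached 50 UMIs. The WT library thus carried more lymphoid and neutrophil transcripts in its members, and the part of these in the results was not tested, except that without members holding a UMI of another lineage the interferon list kept its direction.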

How the data were processed

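The deposited files were filtered 10x matrices of UMI counts, 1 per genotype, not normalized by the authors, with 55450 genes. Per the labels, cells were sorted for CD45, loaded on a 10x 3' v3 kit for about 6000 to 8000 cells and sequenced to about 48000 reads per cell. Per the submitters' processing notes, bcl2fastq 2.20, Cell Ranger 3.1.0, Seurat 4.0.1 and GRCm38 were used, while the file headers name Cell Ranger 4.0.0.

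From the raw counts the member rule was applied and the UMIs of members were summed per library and given as CPM with exact Poisson intervals. Log2 ratios KO over WT have exact conditional binomial intervals, shares have Clopper-Pearson intervals, and ratios of shares have log (Katz) intervals, all at 95%. With 1 library per genotype no test was possible, and cells were not treated as replicates. Genes with at least 50 UMIs over both libraries' members were measured, and a ratio of at least 1.5-fold was counted. The ratio and its interval were run on simulated Poisson counts, drawn independently for each gene and without cells. That simulation shares the assumption of the interval, so it cannot show how the interval performs where few cells hold many UMIs. Genes were named by a rule: the genes of the member rule with Lyz1, Lyz2 and Kcnj2, the 12 highest and 12 lowest ratios at a mean of at least 50 CPM, up to 5 of the largest ratios and the 3 most abundant genes of each of 42 lists, and 10 genes each way against each other cell set at a mean of at least 100 CPM. A few further genes of these lists, such as receptors and sensors, were named after their values were seen, and some genes that the rule names are not reported here. Members and lists were chosen with earlier results of these data known. No doublet caller was run: the rule bars other lineages, and alternatives left out the 6% deepest members and members with a UMI of another lineage. Of barcodes removed by the gene and mitochondrial limits, 2 in KO and 0 in WT met the rest of the rule. Promoter windows came from RefSeq (GRCm38.p6) and gene coordinates from GENCODE M21. Tools were Python 3.11.15, numpy 2.4.6, pandas 2.3.3, scipy 1.17.1 and matplotlib 3.10.9.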

Additional observations from a re-analysis of the deposited data

Results flagged for a closer look

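Ccl12 ran in opposite directions in the 2 sets of members, with a log2 ratio KO over WT of 1.07 in the high Ly6c2 and Hp set and -1.996 in the low set. Ccl5, a chemokine also made by T and NK cells, had -0.63 in the high set and 1.26 in the low set. Tbc1d4, a Rab GTPase-activating protein gene high in type 2 dendritic cells, had -0.85 in the high set (from 30 UMIs in KO and 16 UMIs in WT, with an interval from -1.77 to 0.12 that includes 0) and 1.42 in the low set. Prtn3, a granule protease gene, had 0.67 in members and -1.78 in comparator macrophages, where it had 8.69 CPM in KO and 29.9 CPM in WT. Each came up because the ratio was at least 1.5-fold in opposite directions in 2 sets of cells. With 1 library per genotype these differences were not tested.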

How the results depend on the processing

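No paired analysis was possible because each genotype had 1 library. For the same reason no library could be left out. The share of members was 4.59% in WT with a lowest monocyte sum of 5, 13.8% in KO and 3.64% in WT with a sum of 12, and 16.0% in KO and 4.55% in WT with at most 10% mitochondrial UMIs. Over cells with at least 3000 UMIs, a setting chosen after seeing the data that left out 1060 KO cells and 3300 WT cells, the shares were 18.1% in KO and 6.33% in WT, a log2 ratio of 1.51. With the same cells thinned to 3000 UMIs before the rule, the WT share was 5.07%, the log2 ratio of shares 1.49, and members were 78.2% of members and macrophages in KO. Genes at least 1.5-fold higher numbered 453 after thinning, and 160 of the 792 higher genes (20.2%) and 32 of the 300 lower genes (10.7%) remained past the limit there, with 5389 genes measured against 9000 in the main setting. Genes that fell under the minimum of 50 UMIs count as not remaining, so these shares do not show how many ratios shrank. With a minimum of 20 UMIs 1252 genes were higher and 674 lower, with 200 UMIs 301 and 76, and at 2-fold 184 and 61. Without the 5 members with the most UMIs of each gene, 1665 were higher and 173 lower and the type I interferon median was 1.16. Since 5 cells are a larger part of WT members, the same share of cells was also left out, a setting chosen after seeing the data, as were the high and low sets, shared barcodes and Ccr7 members. That gave 997 higher and 431 lower.

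Named genes gave 4064 values under 15 settings. Of these 3346 stayed within the gene's counting interval, 706 moved beyond it without turning a ratio past 1.5-fold round, and 12 turned such a ratio round. Ccl12 was 0.15 after thinning, 0.13 without its 5 highest members and 1.07 in the high set. Without their 5 highest members G0s2 was 1.35 and Serpinb2 1.54, and Serpinb2 was 0.43 without the same share of cells. In the high set Ifnb1 was -0.20, and in the low set Cd177 was -0.28, Prtn3 -0.24 and Serpinb2 0.046. Without members holding a Ccr7 UMI Ccl22 was -0.079 and Tbc1d4 -0.17. The median of the B cell markers was 0.11 without members of another lineage. Of 82 named genes past 1.5-fold, 74 had the same sign under every setting run on them. The causes were not tested.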
